A study of Mus musculus with 6 samples.

Results

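The genes described are 33 genes of the ATF4 amino acid response: stress regulators, enzymes of serine, cysteine, proline and one-carbon synthesis, and amino acid transporters. They were taken by gene symbol from a fixed list that was chosen with earlier results of these data known. Each symbol had 1 probe set, that of the highest mean level. Of the 33, 32 had a named probe set among the 19505 genes of the array; Pycr1, a proline synthesis enzyme, was not analysed here. Levels were measured on Affymetrix Clariom S arrays, 1 per sample, in 393P cells, a mouse lung adenocarcinoma line that some labels write as 9393P. The groups were cells with stable AC9 overexpression (3 samples) and cells with the empty VECTOR (3 samples), both grown in RPMI with fetal bovine serum. The transfection reagent was jetPRIME, and the selection drug was puromycin or G418. The comparison asks how AC9 overexpression affects expression. The sources used here do not say which drug selected which group, nor whether the 3 samples of a group were separate cultures or 1 clone. A drug or clone difference therefore cannot be told apart from AC9, and the p-values rest on a sample-to-sample spread that may be only technical.

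ATF4 is a transcription factor whose translation increases when the initiation factor eIF2 is phosphorylated, as happens when a cell lacks amino acids, accumulates unfolded protein in the endoplasmic reticulum or meets other stresses. With partners of the C/EBP family it binds a C/EBP-ATF response element in its targets, which include genes that make, import and load amino acids and genes that restrain the response, such as Trib3 and Ppp1r15a. Many tumour cells keep the program active to supply serine, cysteine and asparagine for growth. Because ATF4 itself is controlled mainly in translation, its mRNA level does not show the amount of the protein.

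The response element was searched as TGATGNAA on both strands of RefSeq promoter windows (GRCm38.p6), which run from 250 bases before to 50 bases after a start site. Windows were given for 27 of the 33 genes, the others being Cth, Slc38a1, Slc1a5, Slc7a5, Slc7a3 and Eif4ebp1. Of the 27, 9 (33.3%) held a match in at least 1 window, against 4.51% of all 27025 genes with a window. The 33 genes were listed for their place in the ATF4 response, so this difference is not independent support for the element. No other motif was searched. The 6 sequences printed are those of the measured genes whose match lay wholly before the start site. Each is 60 bases on the gene's strand, with the match in capitals. They come from genes that rose, did not pass the test or fell. Their matches are alike because the search pattern fixed every base but the N.
Asns: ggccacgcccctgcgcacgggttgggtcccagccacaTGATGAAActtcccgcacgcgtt
Atf3: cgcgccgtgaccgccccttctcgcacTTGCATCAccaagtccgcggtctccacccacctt
Chac1: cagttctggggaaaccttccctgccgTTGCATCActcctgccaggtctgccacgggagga
Nupr1: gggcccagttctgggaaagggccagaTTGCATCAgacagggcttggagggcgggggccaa
Slc7a11: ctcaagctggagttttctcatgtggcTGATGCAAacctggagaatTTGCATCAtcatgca
Slc7a7: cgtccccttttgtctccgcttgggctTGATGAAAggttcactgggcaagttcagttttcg
The Asns sequence lies at chr6:7693210-7693269 (minus strand), Atf3 at chr1:191183410-191183469 (minus), Chac1 at chr2:119351023-119351082 (plus), Nupr1 at chr7:126625547-126625606 (minus), Slc7a11 at chr3:50443646-50443705 (minus) and Slc7a7 at chr14:54418052-54418111 (minus). The match began 23 bases before the start site in Asns, 110 in Atf3 and in Nupr1, 193 in Chac1 and 141 in Slc7a7. Slc7a11 held a match on each strand, beginning 66 and 47 bases before the start. Slc7a7 held a further match, TGATGCAA, that began 1 base before the same start site and 243 bases before another start site of the gene, and that is not printed. Pycr1, Trib3 and Slc1a4 also held a match. A match describes letters in a window and is not evidence of binding.

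In the AC9 cells a minority of the genes rose, by small amounts, and 1 fell, by 2.03-fold. With limma and a Benjamini-Hochberg adjusted p under 0.05 over all 19505 genes, 9 of the 32 measured genes rose and 1 fell (background 9.29% lower). Those that rose were Trib3, Nupr1 and Ddit3 among the stress regulators, Cth, Aldh18a1 and Psph among the enzymes, and Slc38a1, Slc1a5 and Slc7a11 among the transporters; the transporter Slc7a7 fell. The share past the threshold was 31.2%, against 17.6% of all genes; for genes higher in AC9 it was 28.1% against 8.26%. Among the 10859 genes above the negative-control bound in at least 1 group, the background was 28.7% in either direction, 13.3% higher and 15.4% lower. That bound, a log2 intensity of 6.06, is the 90th percentile of the array's negative control probe sets. The total share of calls was therefore near the background of detected genes, whereas the calls were mostly in 1 direction. Because the genes were listed with earlier results of these data known, these shares describe the list and are not an independent test.

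The sizes were small, and in bulk RNA a change in each cell cannot be told apart from a change in the share of cells that express a gene. The median log2 change over the 32 genes was 0.26, beside 0.016 over all genes, and 30 of the 32 had a positive change, beside 52.7% of all genes. The 3 AC9 arrays lay above the 3 VECTOR arrays for 21 of the 32 genes (background 17.3% of all genes and 24.8% of those above the bound) and below them for Slc7a7 (17.7% and 27.3%). All 10 genes past the threshold were among those 22. The mean log2 intensity over the 32 genes ran from 10.00 to 10.07 in VECTOR and from 10.24 to 10.28 in AC9. Of the 32 genes, 22 did not pass the test, and the 95% interval of 12 spanned 0. These counts depend on how the variance was modelled and on which arrays entered: 22 genes passed (21 higher) with an intensity-trended robust prior, and 6 passed (5 higher) without AC9 replicate 3.

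**Figure D1:**
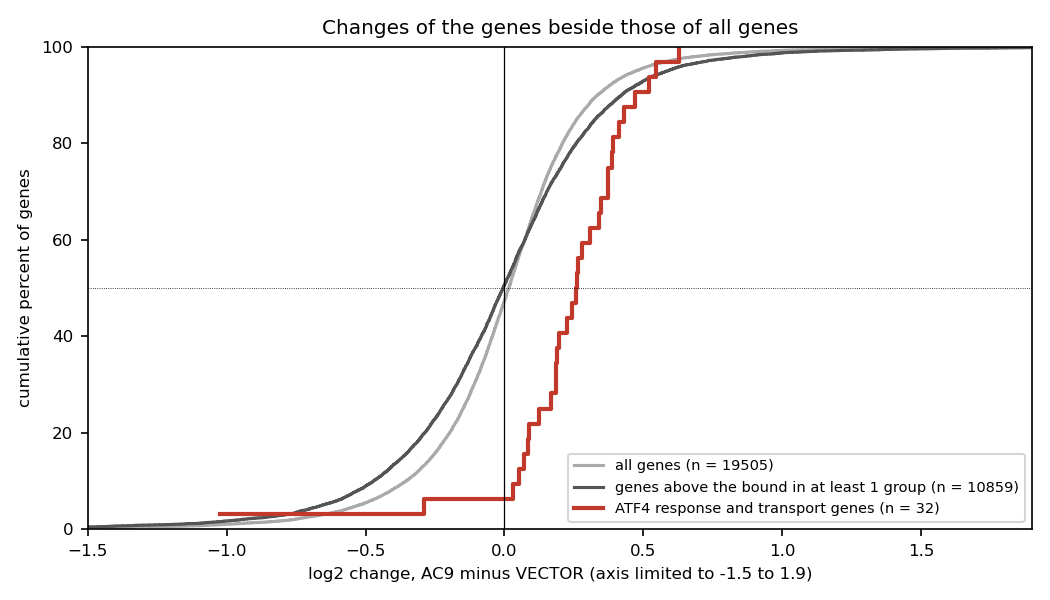
Cumulative percent of genes (vertical axis) by log2 change, AC9 minus VECTOR (horizontal axis), for all 19505 genes, the 10859 genes above the negative-control bound and the 32 measured ATF4 response and transport genes. The red steps lie to the right of both grey lines over most of the range, with medians of 0.26 for the 32 genes and 0.016 for all genes, and they end at 0.63.

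Among the 10 stress regulators, 3 rose and 0 fell in the limma fit (0 lower at an unadjusted p under 0.05 either), and the 10 changes ran from 0.052 to 0.52 (median 0.32). The 30% past the threshold was near the 28.7% of genes above the bound that passed in either direction. Counting rises only, the 30% stands beside 13.3% of the genes above the bound. Trib3, a pseudokinase that is induced by ATF4 and CHOP and dampens both, read 10.11, 10.20 and 10.20 in VECTOR and 10.79, 10.58 and 10.70 in AC9 (log2 intensity). The groups did not overlap. The log2 change of Trib3 was 0.52 (SE 0.10, limma adjusted p 0.00555), or 1.43-fold. Nupr1, a small stress-induced chromatin protein, read 11.00, 11.05 and 11.20 in VECTOR and 11.61, 11.53 and 11.51 in AC9. Every AC9 array was higher than every VECTOR array, and the change was 0.47 (SE 0.10, limma adjusted p 0.00928), or 1.38-fold.

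Ddit3 encodes CHOP, the C/EBP-related factor of prolonged endoplasmic reticulum stress. It read 9.88, 9.68 and 9.80 in VECTOR and 10.10, 10.24 and 10.13 in AC9, without overlap, a rise of 0.37 (SE 0.10, limma adjusted p 0.0264). This call was the less firm one of the 3: the adjusted p was 0.0807 without VECTOR replicate 2, 0.0541 without VECTOR replicate 3, and 0.0618, 0.0929 and 0.0661 without AC9 replicates 1, 2 and 3. Chac1, which degrades glutathione, came closest to the threshold without passing it. Its arrays read 9.72, 9.65 and 9.72 in VECTOR and 9.91, 10.22 and 10.00 in AC9, a change of 0.35 (limma adjusted p 0.0508).

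Atf4 itself read 12.20, 12.07 and 12.11 in VECTOR and 12.38, 12.22 and 12.34 in AC9. The groups stood apart by little, and the change of 0.19 (95% interval -0.024 to 0.40, limma adjusted p 0.218) did not pass. Of the other regulators, the stress factor Atf3 changed by 0.31 (adjusted p 0.0957) and Ddit4, an inhibitor of mTORC1, by 0.34 (adjusted p 0.0783). Eif4ebp1, a repressor of cap-dependent translation, changed by 0.20 (adjusted p 0.172). In these 3 genes every AC9 array was above every VECTOR array. Sesn2, a leucine sensor that restrains mTORC1, had overlapping groups and a change of 0.052 (95% interval -0.18 to 0.28). Ppp1r15a, the phosphatase subunit that reverses eIF2 phosphorylation, overlapped as well, with the widest spread of the regulators (SD 0.31 in VECTOR and 0.27 in AC9) and a change of 0.26 (95% interval -0.14 to 0.66). That change was 0.083 without VECTOR replicate 1 and 0.41 without AC9 replicate 1, and also moved without AC9 replicate 3 (0.16).

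**Figure D2:**
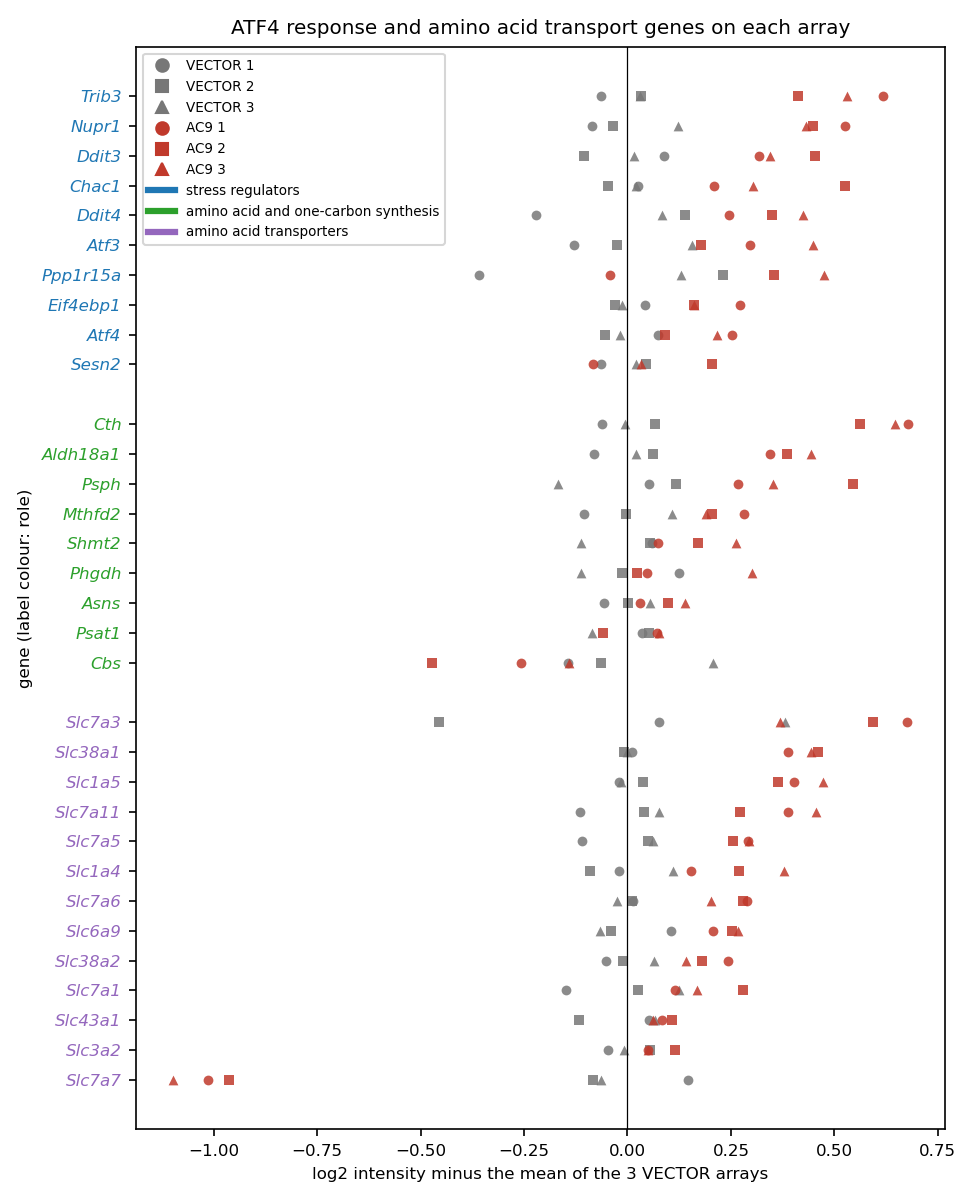
Log2 intensity of each gene on each array minus the mean of the 3 VECTOR arrays (horizontal axis), for 32 genes in rows grouped by role; grey marks VECTOR, red marks AC9, and the symbol gives the replicate number. Red symbols lie to the right of all grey ones for 21 genes, among them Trib3, Nupr1, Cth and Slc38a1, and to the left of them for Slc7a7.

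Of the 9 measured synthesis enzymes, 3 rose and 0 fell in the limma fit (1 lower, Cbs, at an unadjusted p under 0.05), and the median change was 0.17. The 33.3% past the threshold stands beside 28.7% of genes above the bound that passed in either direction. Counting rises only, the 33.3% stands beside 13.3% of the genes above the bound. Cth, cystathionine gamma-lyase, which forms cysteine from cystathionine, had the largest rise of the 32 genes. It read 9.12, 9.24 and 9.17 in VECTOR and 9.86, 9.74 and 9.83 in AC9, groups clearly apart. Its log2 change was 0.63 (SE 0.09, limma adjusted p 0.00167), or 1.55-fold, which ranked 480 of 19505 genes from the highest. Aldh18a1, which makes the proline precursor pyrroline-5-carboxylate from glutamate, read 11.27, 11.41 and 11.37 in VECTOR and 11.70, 11.74 and 11.79 in AC9. The AC9 arrays were all higher, by 0.39 on the mean (SE 0.09, limma adjusted p 0.0167). The adjusted p of Aldh18a1 was 0.0566 without VECTOR replicate 1, 0.0501 without AC9 replicate 2 and 0.0651 without AC9 replicate 3.

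The serine branch was uneven. Psph, the phosphatase of the last step of serine synthesis, read 10.31, 10.37 and 10.09 in VECTOR and 10.52, 10.80 and 10.61 in AC9. The change of Psph was 0.39 (SE 0.11, limma adjusted p 0.0460), and removing any single array ended the call (adjusted p 0.0534 to 0.148). The enzymes before it in the pathway overlapped between groups. Phgdh, the entry step, changed by 0.12 (95% interval -0.13 to 0.38) and Psat1, the aminotransferase, by 0.029 (95% interval -0.18 to 0.24). The change of Phgdh was 0.036 without AC9 replicate 3, 0.068 without VECTOR replicate 3 and 0.19 without VECTOR replicate 1. In mitochondrial one-carbon metabolism, Mthfd2 changed by 0.23 (limma adjusted p 0.146) and Shmt2 by 0.17 (adjusted p 0.297). Both had AC9 arrays that all exceeded VECTOR.

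Asns, asparagine synthetase, is among the best known ATF4 targets, and its promoter sequence is printed above. It read 12.74, 12.80 and 12.85 in VECTOR and 12.83, 12.89 and 12.94 in AC9. The groups overlapped, and the change was 0.089 (95% interval -0.11 to 0.29, limma adjusted p 0.567). Cbs, which makes cystathionine for Cth, had the negative change among the enzymes, -0.29 (adjusted p 0.156). Its groups overlapped, and its AC9 mean of 5.78 lay under the negative-control bound, with VECTOR at 6.07, so its size of change is a poor measure.

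Among the 13 transporters, 3 rose and 1 fell, with a median of 0.26. The 30.8% past the threshold (23.1% higher) stands beside 28.7% of genes above the bound (13.3% higher, 15.4% lower). Slc38a1, the glutamine transporter SNAT1, read 10.27, 10.25 and 10.26 in VECTOR and 10.65, 10.72 and 10.71 in AC9. These were tight groups with no overlap, and the change was 0.43 (SE 0.09, limma adjusted p 0.00823), or 1.35-fold. Slc1a5, the glutamine and neutral amino acid exchanger ASCT2, read 9.00, 9.06 and 9.01 in VECTOR and 9.42, 9.39 and 9.49 in AC9. It too was higher on every AC9 array, by 0.41 (SE 0.09, limma adjusted p 0.0111). The glutamine transporter SNAT2, Slc38a2, whose gene is the immediate neighbour of Slc38a1 among protein-coding genes, changed by 0.19 (95% interval -0.0135 to 0.39, limma adjusted p 0.195).

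Slc7a11, the cystine importer of system xc-, carried the paired element shown above. It read 11.06, 11.21 and 11.25 in VECTOR and 11.56, 11.44 and 11.63 in AC9, without overlap. The change was 0.37 (SE 0.10, limma adjusted p 0.0299), and the call was lost without VECTOR replicate 1 (0.0931), VECTOR replicate 2 (0.0571), AC9 replicate 1 (0.0931) or AC9 replicate 3 (0.105). Slc3a2, the heavy chain that carries Slc7a11, Slc7a5, Slc7a6 and Slc7a7 to the cell surface, did not pass the test. Its arrays read 12.80, 12.90 and 12.84 in VECTOR and 12.90, 12.96 and 12.90 in AC9, which overlap, and the change was 0.0715 (95% interval -0.13 to 0.27).

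Slc7a7 moved the other way and furthest. It encodes y+LAT1, a light chain that exports cationic amino acids such as arginine and lysine in exchange for neutral amino acids. It read 8.40, 8.17 and 8.19 in VECTOR and 7.24, 7.29 and 7.15 in AC9, so that all 3 AC9 arrays lay far below VECTOR. The log2 change was -1.02 (SE 0.10, limma adjusted p 0.000214), a 2.03-fold difference, and it ranked 178 of 19505 genes from the lowest. It was the one gene of the 32 to pass both the threshold and a 2-fold change, and leaving out any array kept the adjusted p between 0.000944 and 0.00160. Slc7a6, the related light chain y+LAT2, had a positive change: it read 9.73, 9.73 and 9.70 in VECTOR and 10.01, 10.00 and 9.92 in AC9, a change of 0.26 that missed the threshold (limma adjusted p 0.0738).

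The other transporters were positive without passing. The leucine transporter LAT1, Slc7a5, changed by 0.28 (adjusted p 0.0675), the serine and alanine exchanger Slc1a4 by 0.27 (adjusted p 0.110) and the glycine transporter Slc6a9 by 0.24 (adjusted p 0.107). In these 3 all AC9 arrays were above VECTOR. The cationic amino acid importer Slc7a1 overlapped, with a change of 0.19 (95% interval -0.048 to 0.42). Its relative Slc7a3 had a change of 0.55 with a wide interval (0.12 to 0.97, adjusted p 0.0815). The VECTOR arrays of Slc7a3 read 6.15, 5.62 and 6.46, around the negative-control bound, and AC9 read 6.75, 6.67 and 6.44. Its value depended on single arrays: the change was 0.32 (adjusted p 0.179) without VECTOR replicate 2 and 0.74 (0.0250) without VECTOR replicate 3, and the adjusted p was 0.214 without AC9 replicate 1. Slc43a1, the transporter LAT3, lay under the bound in both groups, so its change has no usable size.

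**Figure D3:**
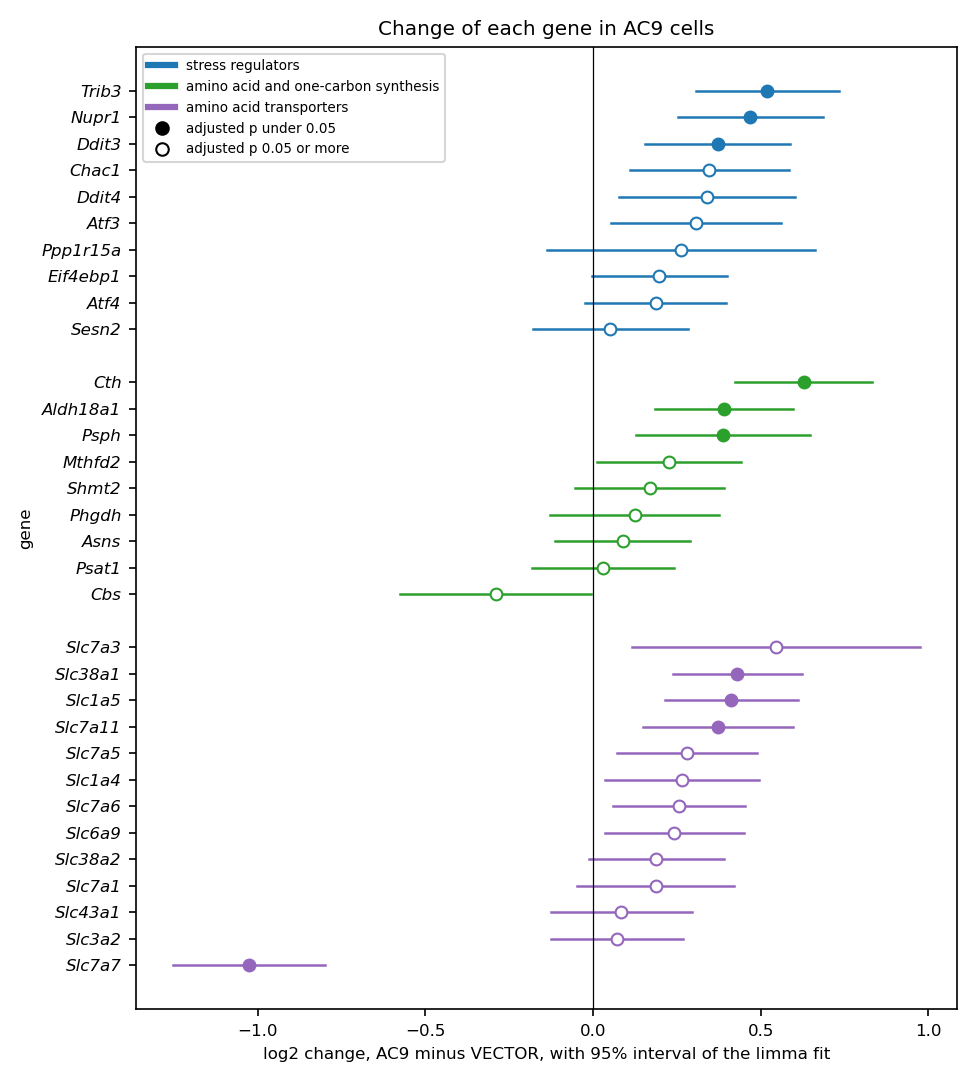
Log2 change, AC9 minus VECTOR (horizontal axis), of 32 genes in rows grouped by role, with the 95% interval of the limma fit; filled symbols have an adjusted p under 0.05 over all 19505 genes. Filled symbols to the right of 0 are the 9 genes that rose, from 0.37 (Ddit3) to 0.63 (Cth), and the filled symbol at -1.02 is Slc7a7.

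The genes were also compared with the promoter matches. Of the 8 measured genes with a match, 3 rose (Trib3, Nupr1 and Slc7a11) and 1 fell (Slc7a7). Their changes ran from -1.02 to 0.52, with a median of 0.33. Of the 18 measured genes with a window and no match, 3 rose (Ddit3, Psph and Aldh18a1). Their changes ran from -0.29 to 0.39, with a median of 0.19. The background was 8.26% higher and 9.29% lower over all genes, and 13.3% and 15.4% over genes above the bound. Among the genes with a window, those with a match thus held both the lowest and the highest change, and the promoter of Asns, which has one, belongs to a gene that did not pass. No test was made on these few genes.

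Further genes of the pathway were taken from 6 lists, of which 116 of 131 genes were measured under a matched symbol. Of these, 24 rose and 11 fell. The lists were chosen with earlier results of these data known, so their shares are descriptive and not an independent test. Shares are set beside those of all genes (17.6% past the threshold, 8.26% higher and 9.29% lower) and of genes above the bound (28.7%, 13.3% and 15.4%). Of the aminoacyl-tRNA synthetases, which load amino acids onto tRNA and of which several are ATF4 targets, 7 of 17 rose and 0 fell in the limma fit (0 lower at an unadjusted p under 0.05). All 17 lay above the bound, and the 41.2% that rose stands beside 13.3% of genes above it; the median was 0.16. The other 10 did not pass, and 2 of the 17 had a negative change, Qars with -0.15 and Mars1 with -0.083, of which Mars1 was lower on every AC9 array. Farsb, a subunit of the phenylalanine enzyme, read 9.53, 9.26 and 9.33 in VECTOR and 10.18, 10.29 and 10.07 in AC9. It rose by 0.80 (SE 0.11, limma adjusted p 0.00115) and was the highest of its list. Iars, the isoleucine enzyme, rose by 0.62 (limma adjusted p 0.00239) and Rars, the arginine enzyme, by 0.59 (adjusted p 0.00205).

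Upstream of ATF4, among 18 genes of the eIF2 kinases, their regulators, eIF2 and its exchange factor eIF2B, 2 rose and 1 fell, with a median of 0.0235. The share past the threshold, 16.7% (11.1% higher), was near the 17.6% of all genes. It was under the 28.7% of genes above the bound, where all but 1 of the 18 lay. Eif2b3, a subunit of eIF2B, rose by 0.57 (limma adjusted p 0.00751). The mitochondrial protease gene Oma1 rose by 0.43 (adjusted p 0.0406), a call lost without VECTOR replicate 2 (0.101), VECTOR replicate 3 (0.0573) or AC9 replicates 1, 2 and 3 (0.130, 0.0621 and 0.102). Eif2ak3, the endoplasmic reticulum kinase PERK, changed by -0.32 (adjusted p 0.0407) and lost its call on removal of any array (adjusted p 0.0643 to 0.142). Of 19 partners and other response genes, 5 rose and 1 fell (31.6% past the threshold, 26.3% higher, median 0.22). The angiogenic factor Vegfa rose by 0.70 (limma adjusted p 0.00823) and Ndrg1 by 0.45 (adjusted p 0.0109), whereas the transcription factor Cebpa, a C/EBP family member, changed by -1.40 (SE 0.12, adjusted p 0.000129), at 9.13, 8.97 and 8.70 in VECTOR and 7.50, 7.66 and 7.45 in AC9.

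Enzymes and transporters of amino acids outside the 33 genes were called in both directions. Of 20 other enzymes, 2 rose and 3 fell (25% past the threshold, 10% higher, median 0.0257). Got1, the cytosolic aspartate aminotransferase, rose by 0.56 (limma adjusted p 0.00334). Bcat2, the mitochondrial branched-chain aminotransferase, changed by -0.998 (SE 0.12, adjusted p 0.000723), reading 9.23, 9.47 and 9.25 in VECTOR and 8.11, 8.35 and 8.51 in AC9. Aldh4a1, which breaks down proline, was at least 1.17-fold lower (adjusted p 0.00602), a lower limit because its AC9 mean lay under the bound. Of 26 other transporters, 2 passed as higher and 5 fell (26.9% past the threshold, 7.69% higher, median -0.0701). All genes had 17.6% past the threshold, 8.26% higher and 9.29% lower, and genes above the bound had 28.7%, 13.3% and 15.4%. Of the 7 calls of this list, 5 were falls. The 5 that fell lay above the bound in both groups. In both groups 14 of the 26 lay under the bound, among them Slc38a3, which was 1 of the 2 higher calls, so that its call is of a signal not above background. The lysosomal transporter genes Ctns, for cystine export, and Slc38a9, the arginine sensor of mTORC1, changed in opposite directions, by -0.83 and 0.58 (limma adjusted p 0.00115 and 0.00410). The neutral amino acid transporter Slc43a2 changed by -0.78 (adjusted p 0.00714).

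Of 16 targets of ATF6 and XBP1, the other branches of the unfolded protein response, 6 rose and 1 fell (median 0.15). The other 9 did not pass, and the gene that fell was Sdf2l1 (-0.37, limma adjusted p 0.0273). All 16 lay above the bound, and the 37.5% that rose stands beside 13.3% of genes above it. This list too was chosen with earlier results of these data known. The transcription factor Xbp1 itself rose by 0.57, and the chaperones Hsp90b1 and Hspa5 by 0.65 and 0.56 (limma adjusted p 0.00491, 0.00138 and 0.00430).

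**Figure D4:**
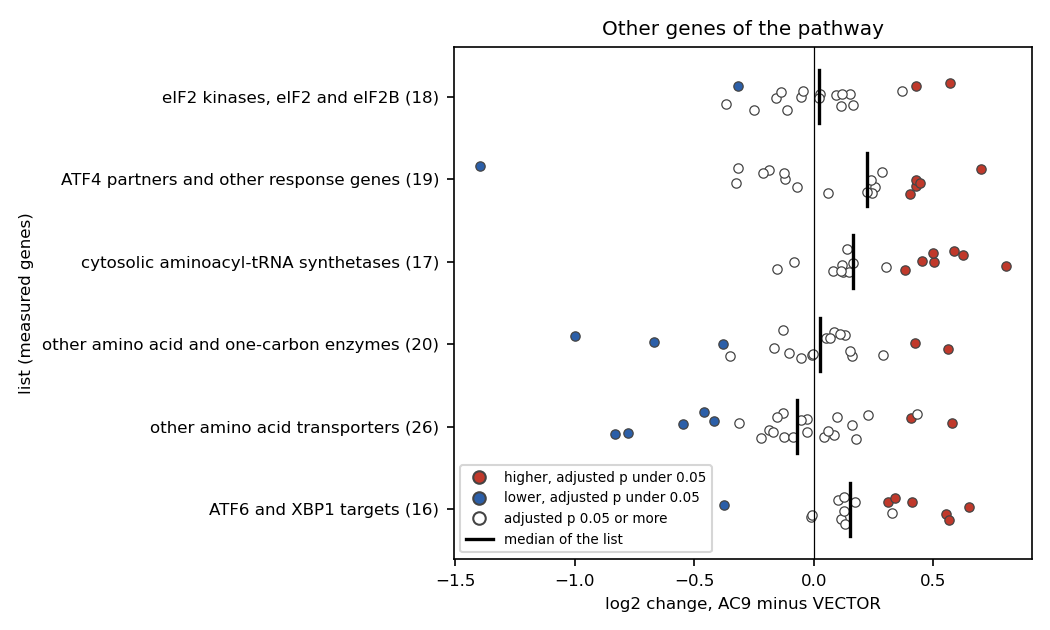
Log2 change, AC9 minus VECTOR (horizontal axis), of the measured genes of 6 further lists (rows); red and blue symbols have an adjusted p under 0.05, higher or lower, and the black bar is the median of the list. The synthetases have 7 red and no blue symbols among 17, while the other transporters have 2 red and 5 blue among 26.

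Adcy9, of which AC9 is a listed synonym, was higher in the AC9 cells by 0.61 (SE 0.10, limma adjusted p 0.00264), with VECTOR at 6.12, just above the bound. Of 10 epithelial and lung adenocarcinoma markers, 7 lay above the bound, among them Cdh1 and Krt8, and the lung markers Nkx2-1, Sftpc and Sftpb lay under it in both groups. All 5 measured leukocyte and 6 endothelial markers lay under the bound, as did 4 of 5 fibroblast markers; the exception was Col1a1. Array medians were 6.42 to 6.46. The array's 23 background probe sets were lower in AC9 without overlap in 19 cases, with a median difference of -0.0563 over the 23 and a largest one of -0.50 on the log2 scale. The median change of the negative controls was 0.0185. The medians of the background probe sets and of the negative controls thus had opposite signs. Taken on each array alone, the negative-control bound was 5.997 to 6.066 in VECTOR and 6.076 to 6.112 in AC9. The part of either shift in any result was not tested.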

How the data were processed

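Log2 intensities per probe set were used as the authors deposited them. Per the submitters' processing notes they came from RMA (background correction, quantile normalization and probe summary). The sources used here name no software version or genome build. GEO's platform annotation gave 19572 of 28846 probe sets 1 gene symbol, or 19505 genes; 55 had several probe sets. Symbols of further lists were also matched through synonyms in a RefSeq table (GRCm38.p6), which supplied the promoter windows. AC9 was compared with VECTOR (3 arrays each) by limma (version 3.58.1, under R 4.3.3; lmFit, then eBayes with a constant prior, two-sided) on all genes, without a filter, at a Benjamini-Hochberg adjusted p of 0.05. The code was tested on simulated data. SE and 95% intervals come from the fit; array number limits the precision. A fold against a group under the negative-control bound is a lower limit. The 33 genes and all lists were chosen with earlier results of these data known, so no set test was made. Each of the 33 was named. Of each further list, up to 3 genes past the threshold with the largest change were named. Some genes that ran against their list or lay under the bound were added. Alternatives were a trended robust prior, other scalings, filters on dim genes, averaged probe sets, array weights, a replicate block, removal of each array, and an adjusted p of 0.01.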

Additional observations from a re-analysis of the deposited data

Results flagged for a closer look

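A second probe set for Ddit3, left out by the choice of 1 probe set per gene, also carried a signal. It read 8.77, 8.72 and 8.71 in VECTOR and 9.22, 9.00 and 9.14 in AC9, without overlap, a log2 change of 0.39 (SE 0.09, limma adjusted p 0.0212 over all named probe sets). The probe set used had 0.37.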

How the results depend on the processing

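Of the 10 genes past the threshold, 6 (Trib3, Nupr1, Cth, Slc38a1, Slc1a5 and Slc7a7) passed under every alternative at an adjusted p of 0.05; Ddit3, Psph, Aldh18a1 and Slc7a11 lost the call under at least 1. A further 12 passed under at least 1 alternative. The count of the 32 genes past the threshold was 22 (21 higher) with the trended robust prior, and 18 (17 higher) under each filter on dim genes (mean level below the 40th percentile, or neither group's mean above the negative-control bound); 31 of the 32 were then tested, and the background was 24.0%, 36.8% and 40.6%. It was 8 with repeated quantile normalization and 12 with arrays centred on their median. Leaving out arrays gave 6 to 9 genes (5 to 8 higher, 1 lower each time), 2174 to 3025 of all genes and as few as 23 of the 116 other pathway genes, without AC9 replicate 1, against 35 with every array. An adjusted p of 0.01 left 5 (4 higher), 1670 of all genes and 18 other pathway genes. Signs turned for Psat1 without VECTOR replicate 3 (-0.013, up to 0.074 without other arrays) and for Sesn2 without AC9 replicate 2 (-0.025, up to 0.12), neither called; the cause was not tested.

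The sources used here do not say whether same-numbered arrays of the 2 groups were paired. The correlations across genes of their deviations from the group means were 0.00846, 0.0814 and 0.00764. Those of differently numbered arrays ran from -0.0924 to 0.0878, and not every array correlated best with its own number. With 3 arrays per group and values this near 0, the check cannot decide whether the numbers mark a pairing. With the replicate block, 3062 of all genes and 9 of the 32 passed (8 higher, 1 lower), Ddit3 being lost (adjusted p 0.0553).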
